A study of Mus musculus with 265 samples.

Results

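The promoters of the mitochondrial ribosomal protein genes were examined in single mouse pre-B cells before and after induction of Ikaros. The members are the regions of the deposited accessibility matrix whose midpoint lies within 1000 bp of the start site of a protein-coding gene with a symbol beginning with Mrpl or Mrps and a digit. The start sites came from GENCODE vM21. The rule found 72 of the 20103 regions, among 8786 promoter regions of all genes, and the other 8714 promoter regions served as the comparison. They lie at 63 of the 78 mitochondrial ribosomal protein (MRP) genes, 40 of 49 genes of the Mrpl series and 23 of 29 of the Mrps series.

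The mitochondrial ribosome translates the few messages encoded by mitochondrial DNA, which specify core subunits of the respiratory chain and of ATP synthase. Its RNA comes from mitochondrial DNA, but every one of its proteins is encoded in the nucleus, made in the cytosol and imported. Many of these proteins have bacterial relatives, and others are particular to mitochondria. Promoters of nuclear genes for mitochondrial proteins are known for binding sites of ETS-family factors such as GABP, of NRF1, of YY1 and of Sp1. Mrpl symbols stand for the large subunit and Mrps symbols for the small one, although Mrps18a and Mrps30 proteins sit in the large subunit. Regions are called large-subunit or small-subunit here by symbol alone.

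B3 is a mouse pre-B cell line, here one that carries an inducible Ikaros, a zinc-finger factor of lymphoid development, fused to the ERt2 ligand-binding domain. Both time-points carry the fusion. The 0-hour cells were taken before induction and the 24-hour cells after 24 hours in 20 mM 4-hydroxytamoxifen (4OHT), the concentration stated in the labels, with a further dose at about 12 hours. The comparison has no 24-hour cells without 4OHT and no 4OHT-treated cells without the fusion, so that time, 4OHT and Ikaros cannot be told apart. Each time-point has 2 C1 runs, in which single cells were captured on the Fluidigm C1 and their accessible DNA was tagged by Tn5 transposase. The matrix holds 48 and 47 cells of 0-hour runs 1 and 2, and 60 and 72 cells of 24-hour runs 1 and 2.

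The 4 runs held between 92639 and 164357 counts, and their median cell held between 1676 and 2898. Nothing in the labels says that runs were separate cultures, and p-values therefore measure the spread between runs, which may be technical. Promoter regions took 51.0 and 48.5% of all counts at 0 hours and 58.3 and 66.4% at 24 hours. The second 24-hour run had the highest promoter share, and the first also lay above both 0-hour runs. Values without the second 24-hour run are given beside the main results it bears on. Of 12 pre-B cell genes, 8 had a promoter region, against 0 of 8 T cell genes, 0 of 5 erythroid genes and 1 of 6 myeloid genes, Lyz2, with 7 counts in all.

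The MRP regions clustered at the start sites. Of the 72 regions, 41 covered the annotated start, 38 had their midpoint upstream of it and 34 downstream, and the median midpoint lay 11 bp upstream. The span from start to end coordinate was 23 to 200 bp with a median of 143 bp, against a median of 146 bp in the other promoter regions. Midpoints within 100 bp of a start site made up 63.9% of MRP regions and 58.9% of other promoter regions. Every region of the matrix was tested, without a further filter on low values. The matrix itself holds only regions detected in at least 5 cells.

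Shared promoters were frequent in the family. A second protein-coding gene started within the same 1000 bp at 30 of the 72 regions (41.7%), against 13.7% of other promoter regions, and at 29 of them (40.3%, against 12.5%) that gene lay on the opposite strand. The same held over genes, irrespective of the matrix, since 33 of the 78 MRP genes (42.3%) had an opposite-strand start within 1000 bp and 10.7% of all other protein-coding genes did. Cytosolic ribosomal protein genes gave 17.4% (16 of 92). Some partners also serve mitochondria. Mrpl43 stands beside Twnk, the helicase of mitochondrial DNA replication, Mrpl36 beside Ndufs6, a subunit of respiratory complex I, and Mrps27 beside Ptcd2, a mitochondrial RNA-binding protein. Mrps11 and Mrpl46 share 1 region between them, which is counted once, under Mrps11. Other partners do not, as Tcp1 beside Mrpl18, a subunit of the cytosolic chaperonin, Psma2 beside Mrpl32, a proteasome subunit, and Ncapd2 beside Mrpl51, a condensin subunit. Accessibility of a shared region cannot be assigned to either gene. These partners were named after their values were seen.

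The sequences below show, in some members, the ETS and NRF1 matches, which were more frequent in MRP than in other promoters. They are the parts of the regions that hold no annotated exon, read 5′ to 3′ on the strand of the MRP gene from the RefSeq GRCm38 (mm10) genome, the build of the deposited regions. Whether the deposited coordinates count from 0 or 1 is not stated, and they were read as 1-based. Capitals mark CCGGAAG, an ETS core with its flank, or its reverse complement, and GCGCATGCG, an NRF1 site, or its reverse complement. Mrps14 is shown as a highly accessible member with neither.
Mrpl22, chr11:58171529-58171660, plus strand: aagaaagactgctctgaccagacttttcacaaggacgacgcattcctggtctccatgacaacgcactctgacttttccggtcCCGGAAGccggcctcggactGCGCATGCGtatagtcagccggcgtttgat
Mrpl17, chr7:105811209-105811349, minus strand: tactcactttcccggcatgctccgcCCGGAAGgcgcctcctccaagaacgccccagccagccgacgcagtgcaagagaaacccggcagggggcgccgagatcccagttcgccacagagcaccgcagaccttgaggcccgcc
Mrpl43, chr19:45006443-45006557, minus strand: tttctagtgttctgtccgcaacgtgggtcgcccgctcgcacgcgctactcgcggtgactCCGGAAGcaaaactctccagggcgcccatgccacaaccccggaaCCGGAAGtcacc
Mrps27, chr13:99344706-99344785, plus strand: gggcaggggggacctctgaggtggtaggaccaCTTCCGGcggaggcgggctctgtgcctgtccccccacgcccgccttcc
Mrps22, chr9:98601661-98601780, minus strand: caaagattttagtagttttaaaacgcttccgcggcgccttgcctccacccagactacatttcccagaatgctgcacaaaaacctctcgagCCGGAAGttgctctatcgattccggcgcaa
Mrps35, chr6:147042657-147042763, plus strand: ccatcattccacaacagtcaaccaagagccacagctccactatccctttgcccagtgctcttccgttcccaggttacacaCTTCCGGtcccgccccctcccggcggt
Mrpl9, chr3:94443216-94443317, plus strand: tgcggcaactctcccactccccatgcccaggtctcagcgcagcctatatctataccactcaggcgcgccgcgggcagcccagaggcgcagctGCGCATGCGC
Mrps14, chr1:160195068-160195214, plus strand: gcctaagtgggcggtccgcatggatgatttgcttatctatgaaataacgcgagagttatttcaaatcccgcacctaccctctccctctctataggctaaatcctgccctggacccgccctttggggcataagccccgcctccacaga

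In windows of 150 bases centred on the regions, the ETS string was found in 22 of the 72 MRP regions (30.6%) and in 16.0% of other promoter regions. The stretches of Mrpl22, Mrpl17, Mrps27, Mrps22 and Mrps35 above hold 1 match each, and that of Mrpl43 holds 2. NRF1 strings occurred in 5 MRP regions (6.94%, against 2.80%), those of Mrpl9, Mrpl22, Mrpl32, Mrpl39 and the Mrpl17 region at the start site, and the YY1 string AAGATGGCG in 4 (5.56%, against 2.02%). The NRF1 string overlaps its own reverse complement, so that the Mrpl9 stretch counts 2 matches in 1 run of capitals. An Sp1 or KLF box, GGGCGG, was found in 40.3% of MRP regions and 55.3% of the others, and the pentamer CCAAT in 27.8 and 30.8%. The E-box CACGTG was found in 4.17 and 7.0%, the CREB site TGACGTCA in 1.39 and 3.12%, and the Ikaros core GGGAA in 41.7 and 37.9%. Both strands were searched and none of these strings contains another. The median GC content of the MRP windows was 64.7%, beside the 65.3% of other promoter regions.

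The ETS string was also more frequent at MRP genes when the matrix was not used. In promoters of 300 bases, 250 before and 50 after the start of each RefSeq gene, CCGGAAG was found in 27 of the 78 MRP genes (34.6%) and 10.7% of 21850 other genes. It was present in 18 of 63 MRP genes with a region and 9 of 15 without. In the same windows the YY1 string was found in 8.97 and 1.67%, and GGGCGG in 44.9 and 43.0%. A match is a string in the sequence and no measure of binding, and the differences in share were not tested.

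**Figure D1:**
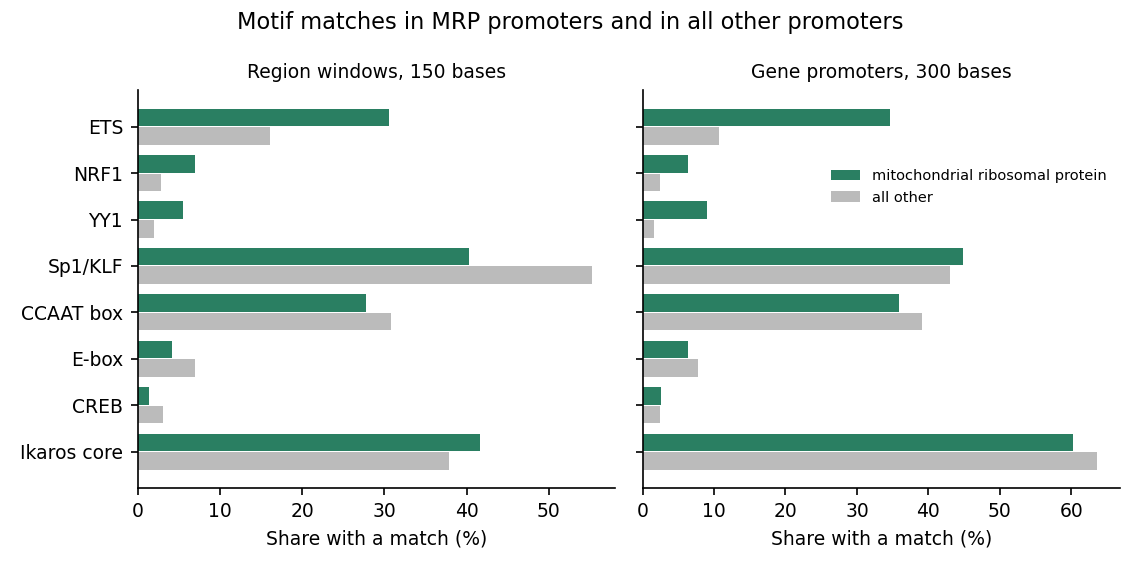
Share of sequences with at least 1 match to each motif, in percent, for mitochondrial ribosomal protein promoters (green) and all other promoters (grey). The left panel uses windows of 150 bases at the accessible regions (72 and 8714) and the right panel promoters of 300 bases (78 and 21850 genes). The green bar is the longer one for ETS, NRF1 and YY1 in both panels, while for Sp1/KLF it is the shorter one in the left panel.

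The level of accessibility differed widely among members. Summed over the 227 cells, a region held 5 to 126 counts with a median of 26, and was detected in 5 to 77 cells with a median of 17, against medians of 29 counts and 19 cells in other promoter regions. No region of the matrix was detected in fewer than 5 cells, which sets the lower end. Detection in at least 10% of cells was reached by 30 members (41.7%) and 39.6% of other promoter regions. The 6 regions with the highest sums held 23.8% of the family's 2433 counts. These were at Mrpl18, Mrps26, Mrpl17, Mrps14, Mrps16 and Mrpl51. The lowest were at Mrpl21 (5 counts), Mrpl13 (6), the Mrpl23 region 900 bp downstream (7) and the Mrpl58 region at the start site (7). Mrpl58 encodes a peptidyl-tRNA hydrolase that releases stalled ribosomes.

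By their medians, small-subunit regions had higher sums than large-subunit regions. The grouping is by symbol, so that the regions of Mrps18a, Mrps30 and Mrps36 count as small-subunit. The 25 regions at Mrps genes held 11 to 99 counts with a median of 38, and 15 of them (60.0%) were detected in at least 10% of cells. The 47 regions at Mrpl genes held 5 to 126 counts with a median of 21, and 15 (31.9%) reached that detection. Large over small subunit counts gave 1.25 and 1.36 at 0 hours and 1.43 and 1.23 at 24 hours, and these overlap (p = 1, two-sided exact permutation test of the run values, n = 2 runs against 2). Regions that covered a start site held a median of 35 counts, those beside it 17, and shared regions 35.5 against 23 for unshared ones. These medians describe regions, which are not replicates.

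**Figure D2:**
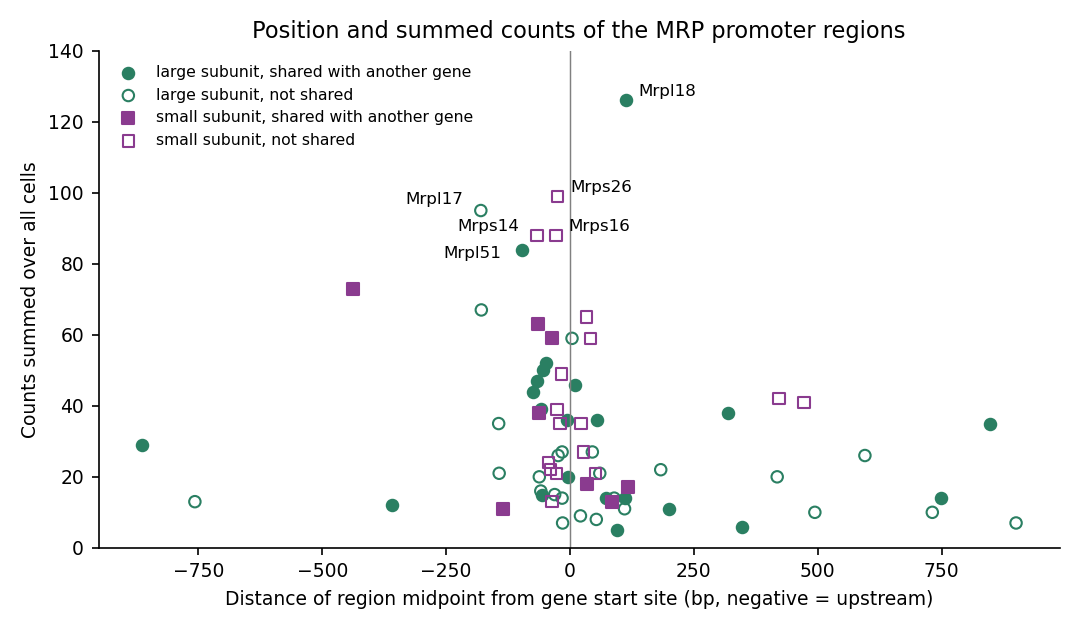
Summed counts of each mitochondrial ribosomal protein promoter region over all cells (vertical axis) against the distance of its midpoint from the start site in bp (horizontal axis). Circles are large-subunit and squares small-subunit regions by symbol, filled where another gene starts within 1000 bp. The 6 labelled regions with the highest sums lie within 180 bp of the start site, and the highest, at Mrpl18, holds 126 counts.

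At 15 MRP genes no region of the matrix lay within 1000 bp of the start. They were Mrpl3, Mrpl24, Mrpl27, Mrpl33, Mrpl35, Mrpl47, Mrpl49, Mrpl53, Mrpl57, Mrps10, Mrps12, Mrps24, Mrps25, Mrps31 and Mrps34. The nearest region was 3411 bp away at Mrpl49 and 78590 bp away at Mrpl3. Mrps12 encodes a protein of the decoding centre, and Mrpl3 a core protein of the large subunit. The matrix holds regions called in bulk samples and detected in at least 5 cells, and a gene with no region there is not shown to be closed. Median GC content of the 300-base promoters was 57.3% for these genes and 57.7% for MRP genes with a region.

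The family's share of promoter counts was close in 3 runs and higher in the fourth. MRP regions took 0.797% of promoter counts in 0-hour run 1 (668 of 83856, 95% Wilson interval 0.739 to 0.859%) and 0.776% in 0-hour run 2 (349 of 44950, 0.699 to 0.862%). They took 0.760% in 24-hour run 1 (543 of 71445, 0.699 to 0.826%) and 0.923% in 24-hour run 2 (873 of 94628, 0.864 to 0.985%). The 24-hour runs thus lay on either side of both 0-hour runs, and the ratio of 24 to 0 hours, from the means of the log2 shares, was 1.06 (p = 1, exact permutation test, n = 2 runs against 2, where 0.333 is the smallest p possible). Without 24-hour run 2 the log2 ratio was -0.049 in place of 0.09. The intervals cover counting error only. They treat counts as independent, although 51.3% of the positive values in members are 2, and may be too narrow even for that error.

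On the scale of all counts the runs separated. MRP regions took 0.406 and 0.377% of all counts at 0 hours and 0.443 and 0.612% at 24 hours (p = 0.333, exact permutation test), a ratio of 1.33. The first 24-hour run alone also lay above both 0-hour runs. The promoter share of all counts, which moved the same way, had a ratio of 1.25. Per cell, without scaling, the 4 runs held 13.9, 7.43, 9.05 and 12.1 counts in MRP regions, so that the 0-hour runs lay outside both 24-hour runs, one above and one below (p = 1, exact permutation test). The median cell of the same runs held 2898, 1787, 1840 and 1676 counts over all regions, so that 0-hour run 1 was the highest in both.

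Cells were then thinned to a common 837 counts, with 48, 46, 47 and 63 cells of the 4 runs retained and 23 below that depth dropped. The median thinned cell had 3 and 2 MRP regions detected at 0 hours and 3 and 4 at 24 hours (p = 0.667, exact permutation test). With 2 other random draws the median was 3 in both 0-hour runs, and the difference between time-points 0.5 in place of 1 (p = 1, exact permutation test). Before thinning these medians were 8.5, 5, 6 and 7. No cell had more than 22 of the 72 regions detected, and 1, 2, 3 and 0 cells of the runs had none. Over the 8 comparisons of run values made here, the smallest p, 0.333, was found for the MRP share of all counts, the promoter share of all counts and the ratio to oxidative phosphorylation counts given below. It became 0.889 after Benjamini-Hochberg adjustment, and the adjusted p of the others was 1.

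**Figure D3:**
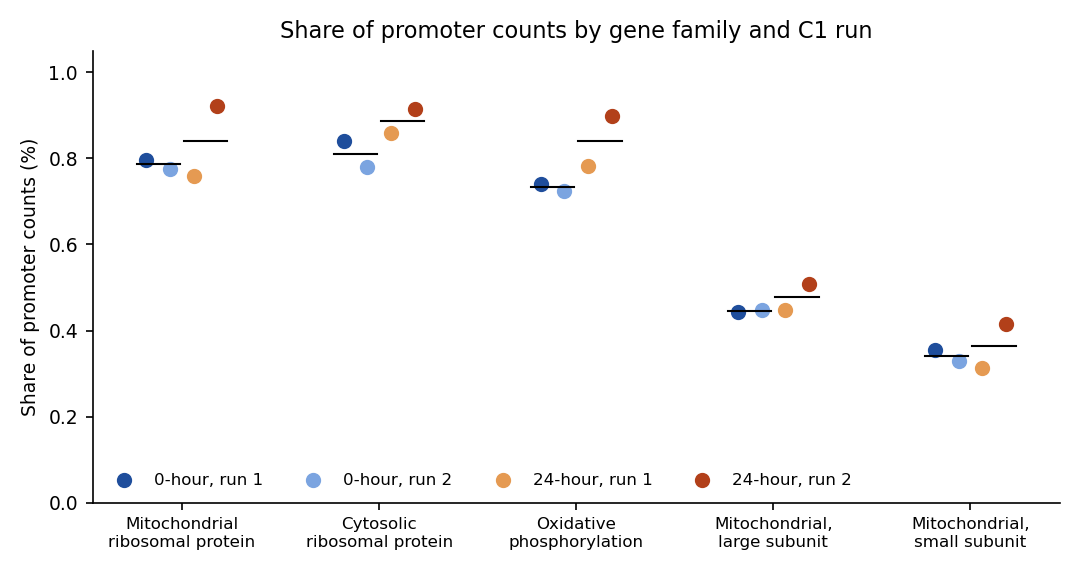
Share of all promoter counts in each gene family, in percent, for the 4 C1 runs (points) with the mean of each time-point (bars, n = 2 runs). In the mitochondrial ribosomal protein family 3 runs lie between 0.760 and 0.797% and 24-hour run 2 at 0.923%, and in the oxidative phosphorylation family the lower 24-hour point, 0.782%, lies above the 0-hour points.

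The nearest comparisons were other housekeeping families whose products work in translation or in the same organelle. The 78 promoter regions of cytosolic ribosomal protein genes took 0.841 and 0.781% of promoter counts at 0 hours and 0.859 and 0.914% at 24 hours. The 72 regions of oxidative phosphorylation genes, 1 of them an MRP region, took 0.741 and 0.725%, then 0.782 and 0.898%. MRP counts relative to cytosolic ribosomal protein counts were 0.948 and 0.994 at 0 hours and 0.884 and 1.01 at 24 hours (p = 1, exact permutation test). Relative to oxidative phosphorylation counts they were 1.08 and 1.07, then 0.971 and 1.03, so that both 24-hour values were the lower ones (p = 0.333, exact permutation test, the smallest possible). The second 24-hour run exceeded the first, on normalised counts, 1.46-fold in MRP regions, 1.28-fold in cytosolic ribosomal protein regions, 1.38-fold in oxidative phosphorylation regions and 1.2-fold in other promoter regions.

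No MRP region passed the adjusted threshold of 0.05 between 24 and 0 hours in edgeR's quasi-likelihood test, where 0.0398% of all regions were called higher and 0.0149% lower. The smallest adjusted p was 0.167, at Mrps23. DESeq2 called none either. At an unadjusted p under 0.05, 8 members were higher at 24 hours (11.1%, against 5.11% of all regions and 7.65% of other promoter regions) and 2 were lower (2.78%, against 7% of all regions and 1.9% of other promoter regions). Without 24-hour run 2, 2 members were higher (2.78%, against 3.75% of all regions and 5.14% of other promoter regions), so that the share lay below that of the others. DESeq2 gave 5 higher (6.94%, against 3.42% of other promoter regions), the number of cells as offset 3 (4.17%, against 1.53%) and thinned cells 3 (4.17%, against 3.45%), so that the share lay above that of the others in these settings. The differences in share were not tested. The test had little power at this spread. In data simulated at the biological coefficient of variation of these runs, 7 of 200 regions changed by a log2 of 2 were recovered.

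The median change of the members was close to that of other promoters. The fitted log2 change was above 0 at 47 regions (65.3%, against 64.6% of other promoter regions) and below 0 at 25. Its median was 0.38, against 0.33 over other promoter regions and -0.06 over all regions. Members with an unshared promoter had a median of 0.22, against 0.33 over other unshared promoter regions, and shared members one of 0.59. Without 24-hour run 2 the medians were 0.18 for MRP regions and 0.17 for other promoter regions. With the number of cells as offset in place of the normalisation to total counts, the median was -0.19 for MRP regions and -0.14 for other promoter regions, so that the direction itself depends on the scaling in both groups. Medians were 0.53 for large-subunit and 0.27 for small-subunit regions, 0.32 for cytosolic ribosomal protein regions and 0.46 for oxidative phosphorylation regions. Members with the ETS string had a median of -0.08 and those without it 0.48. The same split gave -0.35 and 0.41 for NRF1, 0.35 and 0.43 for the Sp1 or KLF box, 0.59 and 0.26 for CCAAT and 0.15 and 0.52 for the Ikaros core, so that ETS was not alone in such a gap, and none of these differences was tested. The other strings were present in 4 members or fewer. Both runs of 24 hours lay above both of 0 hours at 22 members (30.6%, against 19.3% of all regions and 28% of other promoter regions), and below at 9 (12.5%, against 25.7% and 13.2%).

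Named regions below were taken by their sums, by their change among regions whose runs did not overlap, or by their role, and values are counts summed over the cells of 0-hour runs 1 and 2 and 24-hour runs 1 and 2, in that order. Normalised values (CPM, scaled to TMM library sizes) in the same order show the change between runs on a common scale.

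Mrps23, a small-subunit protein particular to mitochondria, had the smallest p of all members. Its region, which covers the start site with its midpoint 17 bp upstream (chr11:88204297-88204445), held 5, 2, 8 and 34 counts, in 5 of 95 cells at 0 hours and 25 of 132 at 24 hours. On the normalised scale these were 30.3, 20.9, 64.7 and 249, a log2 change of 2.54 (SE 0.75, p = 0.00136, adjusted p = 0.167). Without 24-hour run 2 the change was 1.26 (p = 0.222). The runs of the time-points did not overlap, and 24-hour run 2 held the larger part of the signal. Mrpl22, whose protein lines the exit tunnel of the large subunit and whose sequence above carries both ETS and NRF1 strings, held 1, 1, 2 and 16 counts (log2 change 2.97, SE 1.2, adjusted p = 0.301). Of its normalised signal 78.2% came from 24-hour run 2, and without it the log2 change was 0.97 (p = 0.665).

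At Mrps9 the first 24-hour run was the higher one. It encodes a small-subunit protein with a bacterial relative, and its region held 5, 4, 21 and 9 counts (log2 change 1.71, SE 0.76, adjusted p = 0.335, and a log2 change of 0.90 without 24-hour run 1). Mrpl34, at 18, 6, 19 and 24 counts, and the Mrpl41 region near the start, at 6, 9, 15 and 17, also separated, with log2 changes of 0.89 (SE 0.57) and 0.99 (SE 0.67). In both the 24-hour runs lay close together and the 0-hour runs did not. Leaving out 0-hour run 1 gave log2 changes of 1.40 and 0.41, leaving out 0-hour run 2 gave 0.59 and 1.73, and after thinning Mrpl34 was at 0.0026. Mrpl4, another protein of the exit tunnel, held 2, 3, 4 and 13 counts, with normalised values of 31.3 in 0-hour run 2 and 32.3 in 24-hour run 1, which barely separate (log2 change 1.64, SE 1.01, and 0.67 without 24-hour run 2). None of these passed the adjusted threshold.

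Regions listed at 0 in both 0-hour runs were those of Mrps5, a protein near the path of the message into the small subunit, and Mrpl19. Mrps5 held 0, 0, 2 and 11 counts, in none of 95 cells at 0 hours (by counting error alone this leaves room for a count in 3.16% of cells, which limits cells with a count and not cells with an open promoter) and 10 of 132 at 24 hours. Against a floor of 3 counts over the 0-hour runs this is at least 4.34-fold higher at 24 hours (p = 0.00523, adjusted p = 0.22), and 11 of the 13 counts came from 24-hour run 2. Without that run the region held 2 counts at 24 hours, under the floor, and p was 0.227. Mrpl19 held 0, 0, 7 and 7 counts in 8 cells at 24 hours, at least 4.68-fold higher (p = 0.00304, adjusted p = 0.198), with equal counts in both 24-hour runs. Mrpl14, whose protein faces the small subunit, held 0, 1, 5 and 8 counts (p = 0.0262, adjusted p = 0.326, and p = 0.108 without 24-hour run 2). Mrpl19 and Mrpl14 fall outside the rule for named regions and were chosen after their values were seen. The matrix holds only regions detected in at least 5 cells, so that Mrps5, Mrpl19 and Mrpl14 entered it through their 24-hour cells. Their low 0-hour values are thus partly set by that rule, and their folds and p-values are given as descriptions.

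Separation in the other direction was found at members of both subunits. Mrps35, particular to the mitochondrial small subunit, held 14, 4, 1 and 2 counts, in 11 of 95 cells at 0 hours and 2 of 132 at 24 hours (log2 change -2.41, SE 1.10, p = 0.0319, adjusted p = 0.344). Mrps18a held 8, 9, 2 and 2 counts in 9 and 2 cells (log2 change -2.10, SE 1.03, p = 0.0473, adjusted p = 0.403). In both, every 24-hour value lay below every 0-hour value, and the 24-hour runs were alike. At Mrps35 most 0-hour counts came from run 1, and leaving it out gave a log2 change of -1.75 (p = 0.311). After thinning the log2 changes of Mrps35 and Mrps18a were -4.73 and -0.52. Mrpl32, at the promoter shared with Psma2, held 10, 5, 4 and 1 counts, Mrpl39 7, 7, 5 and 1, and Mrps22 7, 7, 5 and 3, with log2 changes of -1.5 (SE 1.04), -1.23 (SE 1.02) and -0.84 (SE 0.95). Mrpl39 and Mrps22 barely separated, with normalised values of 42.5 in 0-hour run 1 and 40.4 in 24-hour run 1. When 24-hour run 1 was omitted, the changes at Mrpl32, Mrpl39 and Mrps22 became -2.81, -2.77 and -1.30, and omitting 24-hour run 2 gave -0.80, -0.44 and -0.44. Mrps22 was also at -0.44 on omitting 0-hour run 2, and Mrpl39 was at -0.11 after thinning. The ETS string is found in the regions of Mrps22, Mrps35 and Mrps18a and not in those of Mrpl32 and Mrpl39. It is also found in those of Mrps23, Mrps26 and Mrpl22, whose fitted changes were above 0, while Mrpl51 and Mrps9, also above 0, lack it. Mrpl21 held 4, 1, 0 and 0 counts, at least 1.66-fold lower at 24 hours, where 0 of 132 cells leave room for a count in 2.27% of cells in the same sense. It was detected in 5 cells, all at 0 hours, and no region of the matrix was detected in fewer. Its place in the matrix thus rests on the 0-hour cells, and the fold is given as a description. None passed the adjusted threshold.

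In the 6 regions with the highest sums, the second 24-hour run lay above all others. The sums that chose them include that run, so that its place among them is partly set by the choice and is given as a description. Mrps26, particular to the mitochondrial small subunit, held 18, 8, 12 and 61 counts, and its normalised values were 109, 83.6, 97.0 and 447. Its first 24-hour run thus lay between the 0-hour runs, while the second was 4.61 times the first (log2 change 1.48, SE 0.56, p = 0.0104, adjusted p = 0.27). Mrpl51, at the promoter shared with Ncapd2, held 8, 11, 13 and 52 counts, with a ratio of 3.63 between the 24-hour runs (log2 change 1.65, SE 0.59, p = 0.00678, adjusted p = 0.237).

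Mrpl18 held 32, 17, 22 and 55 counts, the upstream Mrpl17 region 19, 13, 16 and 47, Mrps16 16, 17, 16 and 39, and Mrps14 31, 9, 13 and 35. Their log2 changes were 0.64 (SE 0.48), 0.93 (SE 0.53), 0.64 (SE 0.53) and 0.32 (SE 0.53). In all 4 the first 24-hour run lay within the range of the 0-hour runs on the normalised scale. Without 24-hour run 2 the log2 changes of Mrps26, Mrpl18, Mrps16 and Mrps14 were -0.019, -0.070, -0.016 and -0.49, and those of Mrpl51 and Mrpl17 were 0.46 and 0.064. Without 24-hour run 1, 5 members (6.94%) passed the adjusted threshold, all higher at 24 hours, Mrps23, Mrps26, Mrpl51, Mrps5 and Mrpl22, against 2.27% of all regions and 3.56% of other promoter regions, and this fit sets a single 24-hour run against both 0-hour runs.

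**Figure D4:**
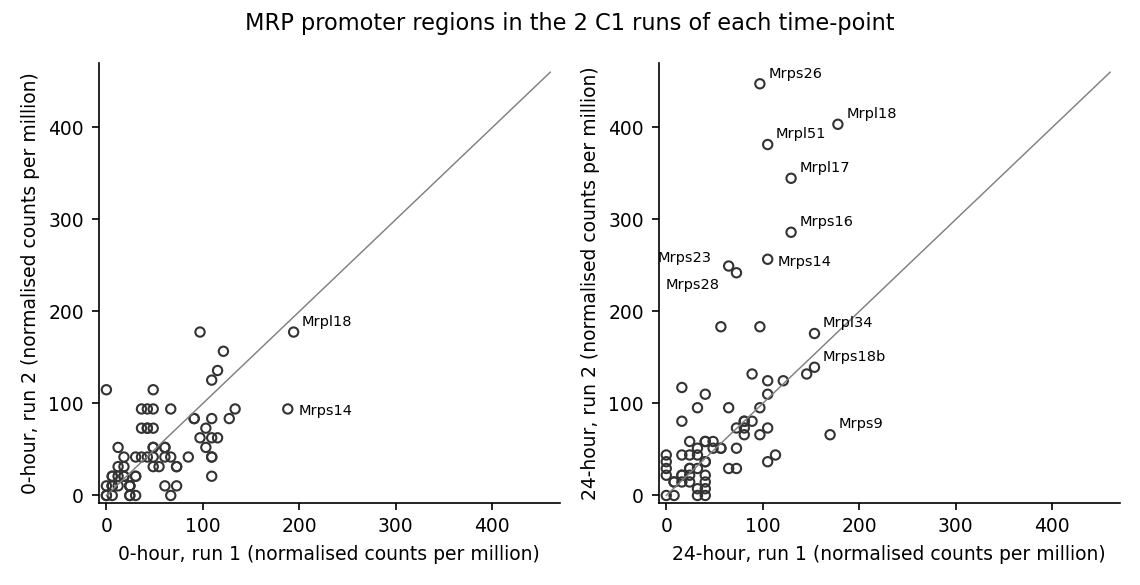
Normalised counts (CPM) of each mitochondrial ribosomal protein promoter region in run 2 (vertical axis) against run 1 (horizontal axis) of the same time-point, with the line of equality, for 0 hours (left) and 24 hours (right). Mrps26, Mrpl18 and 6 further labelled regions lie above 200 in 24-hour run 2, while Mrps9 lies below the line.

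The excess in 24-hour run 2 was not even over the family. In 12 of the 72 regions (16.7%) that run held over 50% of the normalised signal of the 4 runs, against 10.4% of other promoter regions. The shares for 0-hour runs 1 and 2 and 24-hour run 1 were 4.17, 1.39 and 2.78%, against 3.65, 2.50 and 4.61%. The range of these 12 was from 50.5% at Mrpl54 to 83.3% at Mrps5, and several rest on few counts, as at Mrpl58 (7 in all) and Mrpl54 (11). Values in run 2 were more than 2 times those in run 1 at 19 members (26.4%, against 23.9% of other promoter regions), and values in run 1 more than 2 times those in run 2 at 11 (15.3%, against 19.2%). Across the 72 regions, the Pearson correlation of log2(normalised count + 5) was 0.59 for the pair at 0 hours and 0.61 for the pair at 24 hours. Between runs of different time-points it was 0.30 to 0.57. These correlations are across regions that share their libraries and their depth.

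**Figure D5:**
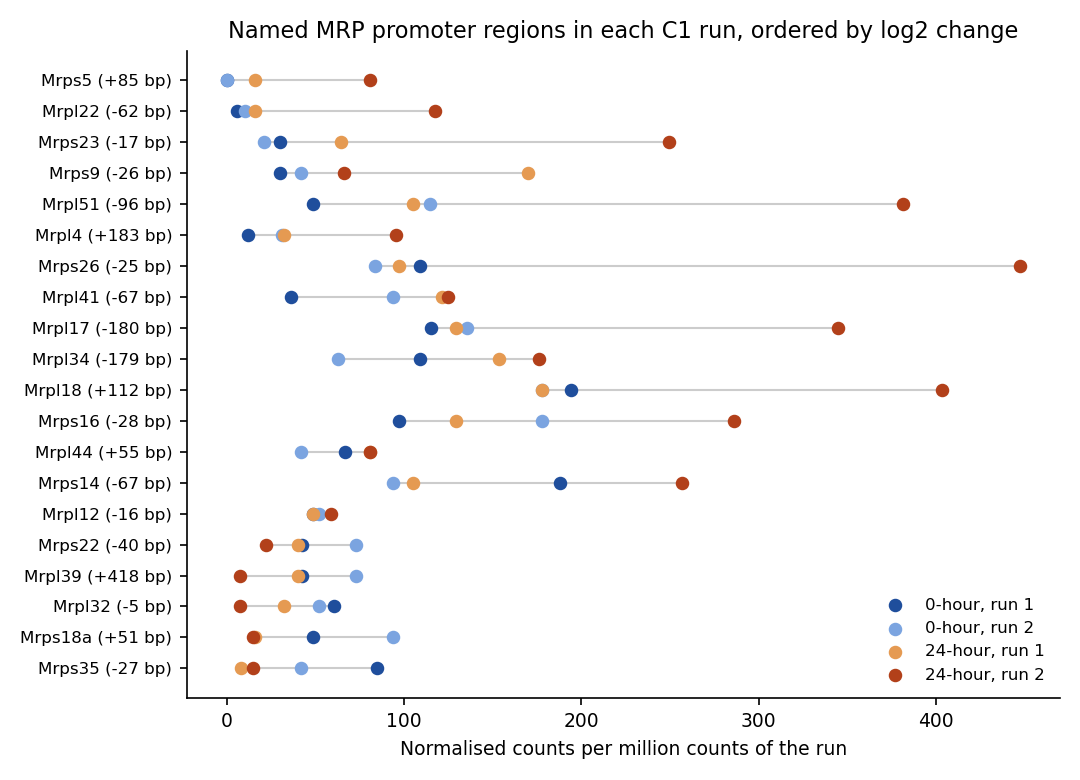
Normalised counts (CPM) in each C1 run (points) for the named regions, ordered by fitted log2 change from the largest at the top, with the distance of each region from its start site in bp. At Mrps26, Mrpl51, Mrpl18 and Mrpl17 the point of 24-hour run 2 lies far to the right of 3 points that lie together, and at Mrps35 and Mrps18a both 24-hour points lie to the left.

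Mrpl12 and Mrpl44, chosen for their role and not described above, had fitted changes within 1 SE of 0. Of the role members described above and detected at both time-points, Mrps22 did so too and Mrps16 did not. Mrpl12, of the stalk that recruits translation factors, held 8, 5, 6 and 8 counts, with normalised values of 48.5, 52.2, 48.5 and 58.7 (log2 change 0.10, SE 0.86). Mrpl44, a protein with an RNase III-like fold whose promoter lies beside Wdfy1, held 11, 4, 10 and 11 counts (log2 change 0.53, SE 0.75). The SE of each is too large to bound the change closely.

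At 9 genes more than 1 region was found. Mrpl1, of the stalk at the tRNA exit, had 3, with 4, 1, 4 and 4 counts at 757 bp upstream, 4, 1, 0 and 4 at the start and 12, 1, 6 and 7 at 595 bp downstream. Mrpl17 had 2 whose orders of runs differed. Its region at the start held 15, 8, 18 and 18 counts, equal in both 24-hour runs, while the one 180 bp upstream was higher only in 24-hour run 2, as given above, and lies on the stretch printed with its ETS string. At Mrpl40, beside the histone chaperone gene Hira, the region 319 bp downstream held 6, 7, 12 and 13 counts and the one 360 bp upstream 10, 1, 1 and 0. The 24-hour runs were thus the higher pair at the first and the lower pair at the second (log2 changes 0.87, SE 0.73, and -3.02, SE 1.57, the latter with p = 0.0592 and adjusted p = 0.438). At the upstream region most counts came from 0-hour run 1, without which the log2 change was -1.20, and without 24-hour run 1 it was -5.41. At the downstream one the change was 0.41 without 0-hour run 1 and 1.38 without 0-hour run 2.

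Mrps28 held 15, 8, 9 and 33 counts at the start and 18, 2, 11 and 11 at 422 bp downstream. At Mrps36, whose product is now assigned to the 2-oxoglutarate dehydrogenase complex, the region at the start held 18, 12, 11 and 18 and the downstream one 16, 6, 10 and 9. The second Mrpl41 region, 863 bp upstream, held 7, 4, 13 and 5 counts. Mrpl48, whose 2 regions lie 749 and 848 bp downstream of its start and beside Rab6a, had 4, 0, 5 and 5 and 10, 5, 10 and 10. The regions of Mrpl23 held 3, 2, 2 and 3 and 1, 1, 3 and 2, and those of Mrpl58 1, 1, 0 and 5 at the start and 5, 0, 0 and 6 beside it.

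Other genes that build and serve the mitochondrial ribosome were taken as lists. The 3 regions of mitochondrial ribosomal proteins with other symbols (Dap3, Chchd1 and Aurkaip1) had a median log2 change of 0.39, and the 11 regions of translation factors one of 0.14. The 18 regions of assembly and rRNA-handling genes had a median of 0.41, the 14 of mitochondrial aminoacyl-tRNA synthetases 0.05 and the 7 of mitochondrial transcription 0.45. None of these regions passed the adjusted threshold, and at an unadjusted p under 0.05 there were 1 assembly region and 1 synthetase region, both higher at 24 hours (1 of 18 and 1 of 14, beside the 5.11% of all regions and 7.65% of other promoter regions above). The assembly region, at Rpusd4, a pseudouridine synthase gene, held 4, 1, 6 and 14 counts (log2 change 1.98, p = 0.0464, and 1.33 with p = 0.278 without 24-hour run 2). The synthetase region, at Mars2 for methionine, held 7, 4, 2 and 33, so that its first 24-hour run lay below both 0-hour runs, and its log2 change of 1.61 (p = 0.0407) turned to -1.33 (p = 0.312) without 24-hour run 2. Both genes were named after their values were seen.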

How the data were processed

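The authors mapped the single-cell libraries to mm10 with Bowtie2, removed duplicates with Picard, kept cells above a minimum of fragments, called peaks on bulk samples with HOMER and deposited 1 matrix of counts per region and cell, without normalization. No value exceeds 2, and 51.3% of the positive values in members are 2. The treatment of larger values is not stated. Doublets were not called, because capture sites had been checked by eye for 1 cell each. Bulk samples were not analysed here. All per-sample columns were used.

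Counts were summed per C1 run and tested over all 20103 regions with edgeR 4.0.16 in R 4.3.3 (TMM, quasi-likelihood test, Benjamini-Hochberg adjustment, threshold 0.05). The SE is the log2 change over the square root of F. The floor of a fold against 0 is 3 counts per time-point. Values per run were tested by exact permutation, two-sided, in SciPy 1.17.1. On simulated data with a log2 change of 2 at 200 of 20103 regions, 124 were called at a coefficient of variation of 0.1 and 7 at 0.42. The estimate for these runs was 0.419. Alternatives were other normalizations, DESeq2 1.42.0, filters, detection only, thinning, a replicate block and each run left out. Named regions were those past the threshold, the 6 highest and 4 lowest by counts, up to 6 in each direction with the largest change among separated regions of at least 20 counts, genes with several regions, and 8 genes by role. The members and lists were chosen with earlier results of these data known.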

Additional observations from a re-analysis of the deposited data

How the results depend on the processing

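No member passed the adjusted threshold under any alternative with all 4 runs, and leaving out each run gave 0 to 5 members called higher (5 without 24-hour run 1) and 0 called lower. The number of members whose runs did not overlap was 22 higher and 9 lower. It was 13 and 17 with cell number as the offset (18.1 and 23.6%, against 12.6 and 20.3% of other promoter regions) and 5 and 2 among the 30 members detected in at least 10% of cells (16.7 and 6.67%, against 24.3 and 15.4%). It was 6 and 1 among the 24 kept by filterByExpr (25 and 4.17%, against 27.5 and 13.9%), 11 and 5 among the 42 members with an unshared promoter (26.2 and 11.9%, against 28.0 and 13.3% of 7518 other unshared promoter regions), and 12 higher after thinning (16.7%, against 23.6%). The share of higher members was thus above that of other promoters in some settings and below it in others. Leaving out a run gave 25 to 42 higher (34.7 to 58.3%, against 39.8 to 49.9% of other promoter regions) and 14 to 22 lower (19.4 to 30.6%, against 22.7 to 27.5%), since fewer runs overlap less. Without 24-hour run 2 the higher shares were 34.7 against 42.7%, and without 24-hour run 1 they were 58.3 against 49.9%. The median log2 change of 0.38 was -0.19 with that offset and 0.18 to 0.56 with a run left out, the lowest without 24-hour run 2. Among members with an unshared promoter it was 0.22, against 0.33 over other unshared promoter regions. The log2 ratio of the promoter share, 0.09, was -0.049 without 24-hour run 2, 0.23 without 24-hour run 1 and 0.41 with all regions as the denominator, which was the highest of its alternatives. With the replicate block it was 0.09 (p = 1, exact permutation of pairs), and the block changed no call at the adjusted threshold, while members at an unadjusted p under 0.05 went from 8 higher (11.1%, against 7.65% of other promoter regions) and 2 lower to 5 (6.94%, against 5.26%) and 0. Runs share only a number, and deviations of same-numbered runs had a correlation of -0.02 over all regions.

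The log2 ratio of counts per cell, 0.04 as a difference of mean logs (the plain means were 10.7 at 0 hours and 10.6 at 24 hours), was -0.093 for medians over cells and -0.41 to 0.50 with a run left out. The difference in regions detected per cell, 1 after thinning, was 0.5 with either other random draw and -0.25 without thinning. The fitted log2 changes of 24 regions, those named for their high sum, change or role with Mrpl19, Mrpl14 and both regions of Mrpl40, were tallied under the alternatives. The 4 regions with the lowest sums, Mrpl21 with its bound included, and the remaining regions of genes with several, for which no fitted change is given, were not. Of these 262 values, 247 kept their direction and side of the threshold, 10 changed sign and 5 passed the threshold, all without 24-hour run 1. With all runs, Mrpl12 was at -0.36 with cell number as the offset and -0.59 after thinning, Mrps14 at -0.24 with that offset and Mrpl44 at -0.41 after thinning. With a run left out, Mrps14 ranged from -0.49 to 0.97, Mrpl12 from -0.043 to 0.23, Mrps16 from -0.016 to 1.12, Mrpl18 from -0.070 to 1.11 and Mrps26 from -0.019 to 2.17. The cause of these changes was not tested. The median region held 26 counts over all cells, and calls in simulated data depended on the spread between runs, with 124 of 200 changed regions recovered at a coefficient of variation of 0.1 and 7 at 0.42.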
